A study of Mus musculus with 2 samples.

Results

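Chromatin loops were described at 41 mouse genes of the immediate early response and the cell cycle: AP-1 subunits, Egr factors, other immediate early genes, Mycn and Mycl, cyclins and their kinases, kinase inhibitors, the Rb and E2F genes, and p53 with growth arrest genes. The genes were listed by name, for their link to estrogen-driven growth of the uterus, and not by any measured value. Earlier results of these data were, however, known when the list was made. A loop was assigned to a gene when an annotated end of the gene (RefSeq, GRCm38.p6) lay inside a loop anchor or within 5 kb of it. All 41 symbols matched the annotation, which holds 21631 protein-coding genes on the chromosomes with loops. By this rule the genes had 97 of the 26240 loops of the diestrus library, or 0.37%, and 84 of the 24131 loops of the estrus library, or 0.348%.

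Both libraries were made by Hi-C, which joins and sequences stretches of chromatin found near each other in the nucleus, with the Arima kit. The tissue was uterus of intact mice of the outbred CD-1 stock, aged 2 months and given no treatment. Diestrus, the stage under progesterone, is represented by 1 library and estrus, which follows the estrogen peak, by 1 library. The labels do not tell how many mice went into a library, and with n = 1 per stage no difference below has a replicate check or a p-value. A loop is a pair of anchors 10 kb wide with more contacts than its surroundings, and its strength is the number of contacts observed over the number expected from the surrounding donut of bins. Only called loops are listed, so a loop absent from a list does not mean absent contacts. Intervals in parentheses are at 95% and cover counting error only, except those of shares of loops. Loops measure no expression, and the cellular makeup of the uterus samples is unknown. Over the genome the estrus list held 0.92 times as many loops as the diestrus list, and the median log2 ratio of the local background over paired loops, estrus over diestrus, was -0.079.

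Immediate early genes are transcribed within minutes of a growth signal without new protein synthesis, and many encode transcription factors. In the uterus estrogen induces Fos, Jun and Egr1 before the epithelium enters the cell cycle. Cyclins D, E, A and B activate cyclin-dependent kinases in turn, the kinases phosphorylate Rb and release E2F factors, and inhibitors such as p21 and p27 hold the kinases back. Immediate early promoters are known for serum response (CArG) boxes and cyclic AMP response elements, promoters of the cell cycle for E2F sites, and p53 targets for p53 elements.

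The promoters of 6 genes whose annotated start lay inside an anchor are shown. Jun, Egr2, Klf6, Mycn and Btg1 are among the 8 genes with the most loops, and Cdkn1a has the loop with the most contacts. An anchor is 10 kb wide, so the data do not place a loop at the printed bases. The sequences are the 250 bases before the start, 5′ to 3′ on the gene's strand, from RefSeq (GRCm38.p6). Capitals mark matches to the motifs searched, and a promoter without capitals held none of them. Egr2 has 5 promoters in the table and Cdkn1a 2, and the first listed of those with the most matches is printed. The one shown for Egr2 belongs to a start inside the annotated gene.
Jun, chr4:95052223-95052472, minus strand: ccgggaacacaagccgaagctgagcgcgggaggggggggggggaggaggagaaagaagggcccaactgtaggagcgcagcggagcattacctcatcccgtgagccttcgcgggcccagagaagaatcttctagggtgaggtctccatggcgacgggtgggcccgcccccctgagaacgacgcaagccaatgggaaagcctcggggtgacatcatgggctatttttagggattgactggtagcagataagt
Egr2, chr10:67537316-67537565, plus strand: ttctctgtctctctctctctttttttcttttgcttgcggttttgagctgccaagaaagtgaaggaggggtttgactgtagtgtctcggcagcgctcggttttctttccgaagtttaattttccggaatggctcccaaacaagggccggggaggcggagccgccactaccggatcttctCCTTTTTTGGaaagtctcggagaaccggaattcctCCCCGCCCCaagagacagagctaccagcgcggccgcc
Klf6, chr13:5861239-5861488, plus strand: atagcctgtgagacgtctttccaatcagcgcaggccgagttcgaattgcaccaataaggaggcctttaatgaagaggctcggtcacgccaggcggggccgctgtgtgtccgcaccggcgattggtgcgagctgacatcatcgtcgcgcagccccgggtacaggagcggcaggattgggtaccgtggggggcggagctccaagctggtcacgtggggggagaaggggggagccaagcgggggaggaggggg
Mycn, chr12:12941837-12942086, minus strand: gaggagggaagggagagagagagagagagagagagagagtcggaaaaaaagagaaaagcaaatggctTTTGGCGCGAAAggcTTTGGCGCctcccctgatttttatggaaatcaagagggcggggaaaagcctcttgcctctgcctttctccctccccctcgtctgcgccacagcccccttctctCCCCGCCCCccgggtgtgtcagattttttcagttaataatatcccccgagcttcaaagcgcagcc
Cdkn1a, chr17:29090729-29090978, plus strand: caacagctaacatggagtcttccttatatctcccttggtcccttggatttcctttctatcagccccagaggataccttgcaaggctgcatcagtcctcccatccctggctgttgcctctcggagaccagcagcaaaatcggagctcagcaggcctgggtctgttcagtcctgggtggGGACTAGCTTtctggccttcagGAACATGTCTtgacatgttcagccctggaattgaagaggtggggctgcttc
Btg1, chr10:96616751-96617000, plus strand: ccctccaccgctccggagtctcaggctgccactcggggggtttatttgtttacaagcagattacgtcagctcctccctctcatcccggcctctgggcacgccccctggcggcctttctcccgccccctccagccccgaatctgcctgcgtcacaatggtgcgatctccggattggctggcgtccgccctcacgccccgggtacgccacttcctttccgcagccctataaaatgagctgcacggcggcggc

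Most of the motifs searched were found in few promoters of the 41 genes, within windows of 300 bases (250 before the start and 50 after it). The table of promoters held 31 of the 41 genes, in 39 promoters, with a median GC content of 64% beside 52.7% over all 32851 promoters. Fosl1, Egr1, Egr3, Ier2, Klf10, Ccnd1, Ccnd2, Ccne2, Ccna2 and Rb1 were not in it, so their promoters were not searched. Sites outside the window were not searched at any gene. The cyclic AMP response element TGACGTCA stood in promoters of 3 genes, Dusp1, Btg2 and Cdkn2b, and in 1.79% of all promoters. A CArG box (CC, 6 bases of A or T, GG) was found in 1 of the 31 genes searched, Egr2, and in 1.63% of all promoters. The Sp1 box GGGGCGGGG was found in 12 genes, Egr2, Mycn and Cdkn1a among them (at Cdkn1a in the promoter that is not printed), and in 11.4% of all promoters. An E2F site (TTTGGCGC, TTTCCCGC, TTTCGCGC or TTTGCCGC) stood in Mycn, Fosl2, Cdk2, Cdkn2a and E2f3, and in 2.26% of all promoters. The p53 decamer, the repeat unit of the p53 response element, was found in Cdkn1a, Gadd45a, Mdm2, Mycl and Trp53, and in 8.36% of all promoters. Counted over the 39 promoters, the cyclic AMP response element stood in 3, the CArG box in 4 and the Sp1 box in 13. The E2F site and the p53 decamer each stood in 5. All 4 promoters with a CArG box belong to Egr2. No member promoter held the AP-1 site TGANTCA (7.81% of all promoters), the Egr site GCGTGGGCG (0.612%), a central CTCF sequence of CCAC, any base, AGG, any base and GGC (0.326%), or a full estrogen response element of GGTCA, any 3 bases and TGACC (0.07%). Both strands were searched, and in Mycn matches to TTTGGCGC and to TTTCGCGC on the other strand overlap. A match is a run of letters and not a measured site.

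Loops were found at 31 of the 41 genes (75.6%) in at least 1 stage, beside 55.7% of all protein-coding genes. They were listed in both stages for 28 genes, in diestrus alone for Egr3 and Cdkn1b, in estrus alone for Junb, and in neither for 10. The mean number of loops per gene was 2.37 in diestrus and 2.07 in estrus, beside 1.2 and 1.14 over all protein-coding genes. Most genes differed little in number between the stages. The count was higher in diestrus at 13 of the 41 genes, beside 17.5% of all protein-coding genes, and higher in estrus at 5, beside 14.3%. It was the same, and above 0, at 13 genes. Of the 18 genes that differed, 15 differed by 1 loop. Of the 12047 protein-coding genes with a loop, 31.5% had more in diestrus and 25.6% more in estrus.

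A difference of at least 2 loops, the size used here to name a gene, was met by 3 genes, each with more loops in diestrus. The background for such a difference was 3.96% of all protein-coding genes and 7.11% of those with a loop. They were Klf6 with 11 loops in diestrus and 8 in estrus, Egr3 with 2 and 0, and Cdkn1b with 2 and 0. With the diestrus list shortened to the length of the estrus list, Klf6 alone met that size, and Egr3 and Cdkn1b each had 1 and 0. No gene had at least 2 more in estrus, for which the background was 2.39% of all protein-coding genes and 4.29% of those with a loop. The ratio of loops at the 41 genes, estrus over diestrus, was 0.866, beside 0.92 for the whole lists. With lists of equal length the 41 genes had 90 diestrus and 84 estrus loops, a difference of -6 in place of -13, and 9 genes were higher in diestrus in place of 13.

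**Figure D1:**
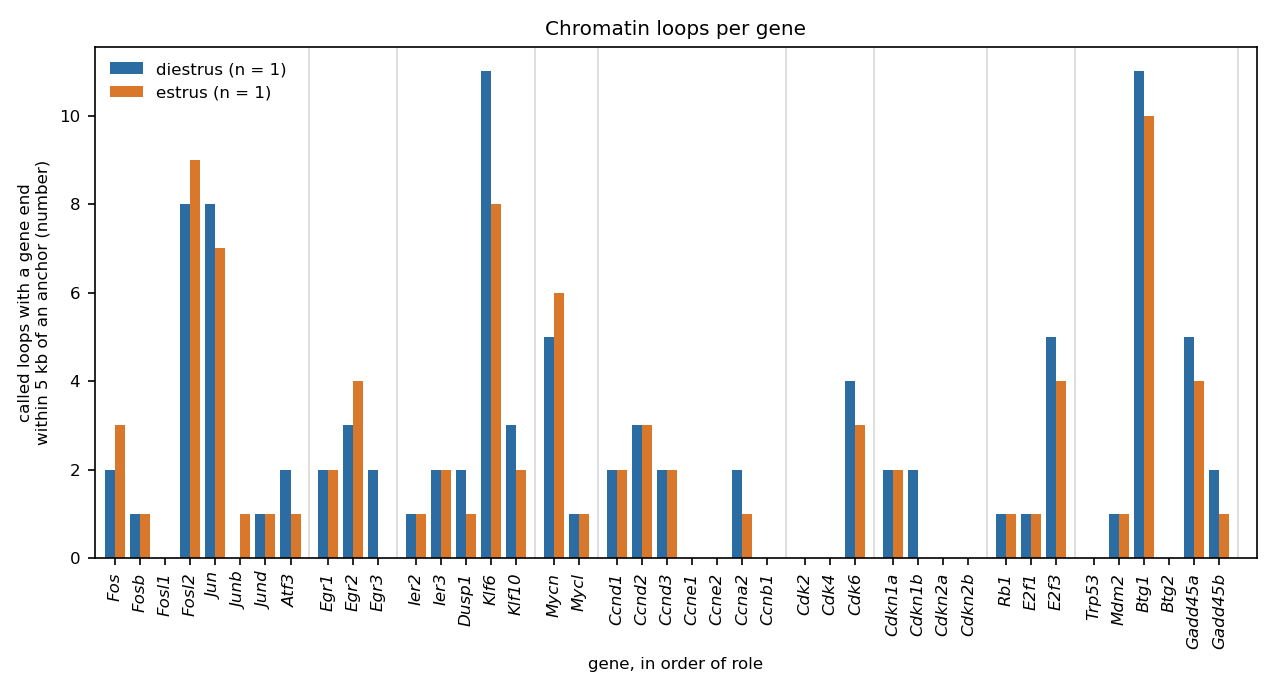
Number of assigned loops (y axis) for each gene (x axis, grouped by role) in the diestrus and the estrus library, 1 library per stage. Klf6 and Btg1 had the most loops, with 11 each in diestrus, and 10 genes had none in either list.

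The stages also shared most of the loops themselves. Of the 97 diestrus loops 77 had an estrus loop with both anchors within 10 kb, which is 79.4% (70 to 86.9%, exact Clopper-Pearson) beside 74.4% of all diestrus loops. This interval takes loops as independent, although loops of a gene share an anchor, and is likely too narrow. Of the 84 estrus loops 74 had a diestrus counterpart, which is 88.1% (79.2 to 94.1%) beside 80.8% of all estrus loops. The loops without a counterpart were weaker than the others: their median strength was 2.33 in diestrus and 2.63 in estrus, against 3.22 and 3.34 for loops with one. The same held over the whole lists, at 2.56 and 2.57 against 3.68 and 3.74. The 20 diestrus loops without a counterpart lay at 14 genes and had a median span of 245 kb. The 10 estrus loops without one lay at 11 genes and had a median span of 85 kb, beside 230 kb over all such estrus loops. Of these 10, 6 spanned 100 kb or less (60%), beside 23.2% of all estrus loops without a counterpart. In diestrus that share was 15%, beside 16.2%.

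**Figure D2:**
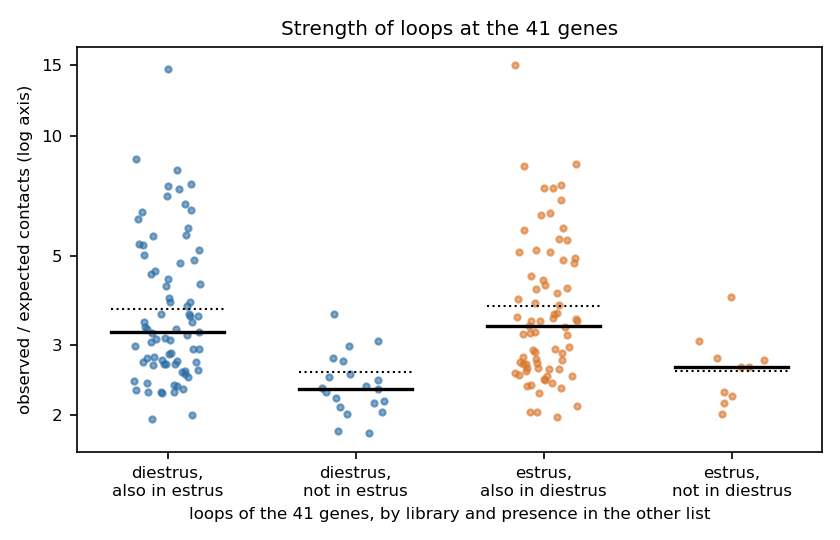
Strength (observed over expected contacts, log axis) of each loop at the 41 genes, split by stage and by whether the other stage listed a counterpart; black lines are medians of these loops and dotted lines medians of all loops. Loops without a counterpart sit low in both stages, with medians of 2.33 in diestrus and 2.63 in estrus.

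The loops at these genes carried many contacts over a high background. The median was 239 contacts in diestrus and 245 in estrus, beside 125 in each whole list. Expected contacts were also higher, at a median of 68.8 and 73 beside 37.4 and 35.8, so that the median strength was 2.97 and 3.18, beside 3.28 and 3.43 over all loops. Loops with an end of any protein-coding gene within 5 kb of an anchor had medians of 146 and 145 contacts. Their medians were 43 and 41.5 for expected contacts and 3.26 and 3.35 for strength. The median span of loops at the 41 genes was 220 kb in diestrus and 190 kb in estrus. Its range was 50 to 1880 kb and 50 to 1200 kb.

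Strength could be compared between the stages for 77 pairs of loops, 60 of them at identical bins. The ratio below is log2 of strength in estrus over diestrus, less the median over all 19399 pairs of the genome. Its median over the 77 pairs was -0.01 and its SD 0.24, beside an SD of 0.26 over all pairs. It was above 0 for 34 pairs and below 0 for 43. Of these, 1 pair was over 1.5-fold stronger in estrus, at Egr3 (background 1.64%), and 1 over 1.5-fold stronger in diestrus, at Jun (background 1.56%). The anchors of both pairs differed by 1 or 2 bins between the stages. A counting interval wholly above 0 was met by 8 pairs (background 6.36%) and wholly below 0 by 11 (background 6.98%). The loops at these genes had a higher median number of contacts than all loops, and counting intervals narrow as contacts rise. Whether this accounts for the difference from the background was not tested, since no pairs matched by contacts were compared.

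**Figure D3:**
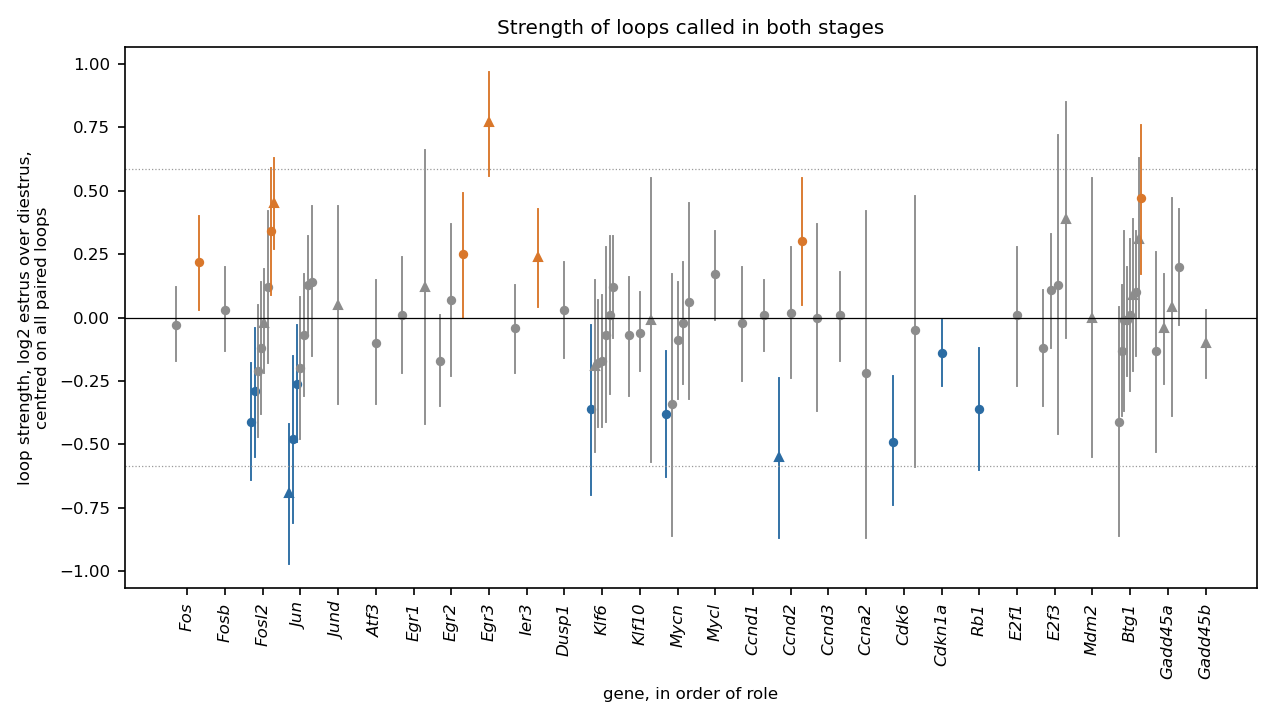
Centred log2 ratio of loop strength, estrus over diestrus (y axis), for each of the 77 pairs, by gene (x axis). Circles are pairs at identical bins and triangles pairs at nearby bins. Bars are counting intervals at 95%, colour marks intervals that leave out 0, and dotted lines mark 1.5-fold. The ratios run from -0.69 at Jun to 0.77 at Egr3.

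Among the AP-1 genes, whose Fos and Jun proteins pair to form the AP-1 factor, 22 loops were listed in diestrus and 23 in estrus (Atf3, a stress-induced partner of Jun, included). Jun, which encodes a partner of all Fos proteins, lies on the minus strand at chr4:95049036-95052222. All of its 8 diestrus and 7 estrus loops left from the anchor chr4:95050001-95060000, which holds the promoter printed above, and all ran to the upstream side, over 110 to 680 kb. The loop of 110 kb had 444 contacts in diestrus (404 to 487) and 476 in estrus (434 to 521), with a ratio of 0.13 (-0.06 to 0.32). The loop of 320 kb in diestrus and 330 kb in estrus had 310 contacts (276 to 347) and 181 (156 to 209), at strengths of 3.75 and 2.34 and a ratio of -0.69 (-0.97 to -0.42). That pair is 1.62-fold stronger in diestrus, on intervals of contacts that do not overlap, but its far anchors are neighbouring bins. The loops of 260 kb and 580 kb leaned the same way at identical bins. The former had 376 and 264 contacts and a ratio of -0.26 (-0.49 to -0.03), and the latter 203 and 126 contacts and a ratio of -0.48 (-0.81 to -0.15). A diestrus loop of 500 kb to Fggy, with 135 contacts, had no estrus counterpart.

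Fosl2 encodes Fra-2, a Fos protein without a strong activation domain, and lies on the plus strand at chr5:32136472-32157840. It had 8 loops in diestrus and 9 in estrus, nearly all from the anchor chr5:32130001-32140000 that holds its start. Its ratios were below 0 at the paired loops of 270 kb or more and above 0 at most of the shorter ones. The loop on the downstream side spanned 60 kb in diestrus with 471 contacts (429 to 516) and 50 kb in estrus with 535 (491 to 582). Its ratio was 0.45 (0.27 to 0.63), but its near anchors were neighbouring bins, and that of estrus lay 3.53 kb from the gene's start. The upstream loop of 100 kb had 255 and 295 contacts and a ratio of 0.34 (0.09 to 0.59). The upstream loop of 70 kb in diestrus and 60 kb in estrus had a strength of 2.27 in both and a ratio of -0.02 (-0.22 to 0.19). That of 190 kb had a ratio of 0.12 (-0.18 to 0.42). The loop of 270 kb had 406 contacts (367 to 447) against 245 (215 to 278), a ratio of -0.41 (-0.64 to -0.18). The loop of 570 kb to Slc4a1ap had 337 against 216, a ratio of -0.29 (-0.55 to -0.04). The loops of 440 kb to Babam2 and Rbks and of 530 kb to Mrpl33 had ratios of -0.12 and -0.21, on intervals that include 0. An estrus loop of 340 kb with 118 contacts had no diestrus counterpart.

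The other AP-1 genes had few loops. Fos (chr12:85473890-85477274) had the loop with the most contacts among the AP-1 genes, 140 kb long to Nek9 and Tmed10, with 823 contacts in diestrus (768 to 881) and 762 in estrus (709 to 818) and a ratio of -0.03 (-0.17 to 0.12). Its anchor, chr12:85480001-85490000, lay 2.73 kb beyond the 3′ end of the gene and 6.11 kb from its start. A loop of 110 kb from the same anchor to Tmed10 had 439 and 489 contacts and a ratio of 0.22 (0.03 to 0.40), and an estrus loop of 50 kb with 251 contacts had no counterpart. Fosb had 1 loop to Ercc1, a DNA repair gene, with 594 and 584 contacts. Jund had 1 loop in each stage, with 133 and 101 contacts. Atf3 had 286 and 277 contacts in a loop of 90 kb, and in diestrus a further loop with 66. Junb was joined to Ier2, another immediate early member, by an estrus loop of 310 kb with 58 contacts (44 to 75) and a strength of 2.29, which counts for both genes. The nearest diestrus anchor lay 31.3 kb from Junb.

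**Figure D4:**
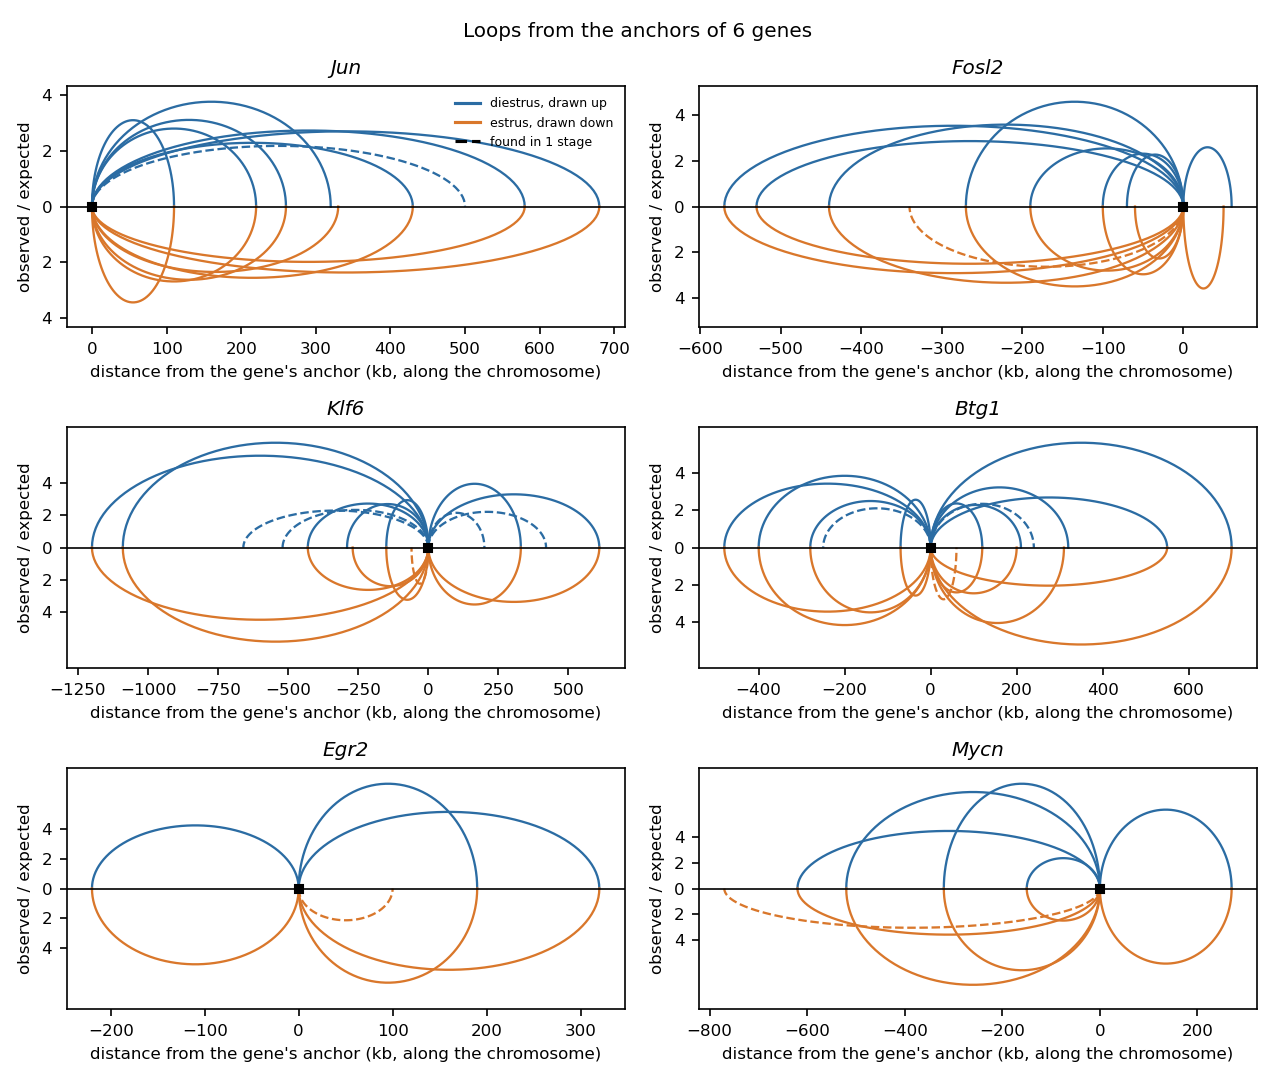
Loops at Jun, Fosl2, Klf6, Btg1, Egr2 and Mycn, drawn as arcs by distance from the gene in kb (x axis), diestrus upward in blue and estrus downward in orange; dashed arcs have no counterpart in the other stage. All arcs at Jun run to its upstream side, whereas those at Btg1 run to both sides.

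The Egr genes encode zinc-finger factors of the early response. Egr2, on the plus strand at chr10:67534469-67542188, had 3 loops in diestrus and 4 in estrus, with its printed promoter inside the anchor chr10:67530001-67540000. The strongest, 190 kb downstream, had 569 contacts in diestrus (523 to 618) and 502 in estrus (459 to 548), at strengths of 7.07 and 6.35 and a ratio of -0.17 (-0.35 to 0.01). The upstream loop of 220 kb had 265 and 300 contacts and a ratio of 0.25 (0.00 to 0.49). Before rounding its lower bound was just above 0, so it counts among the intervals wholly above 0. The loop of 320 kb had 197 and 175 contacts. An estrus loop of 100 kb with 188 contacts had no counterpart and left from the neighbouring bin. Egr1 had 2 loops in each stage, with 310 and 321 contacts over 50 kb to Etf1, a translation termination factor gene, and 60 and 61 contacts over 680 kb in diestrus and 690 kb in estrus, with far anchors in neighbouring bins.

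Egr3 (chr14:70077317-70082613) was listed with 2 diestrus loops, of 50 kb with 394 contacts (356 to 435) and of 60 kb with 201 (174 to 231), and with 0 estrus loops. That difference turned on the 5 kb limit. An estrus loop of 70 kb, with 384 contacts and a strength of 4.01, shared its far anchor with the first diestrus loop and had its near anchor 7.39 kb from the gene. The strengths of 2.33 and 4.01 gave the ratio of 0.77 (0.56 to 0.97), the highest of the 77, on nearly equal contacts over different backgrounds. Within 10 kb the gene had 3 loops in diestrus and 2 in estrus.

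Among the remaining immediate early genes 19 loops were listed in diestrus and 14 in estrus. Klf6, a Krüppel-like factor on the plus strand at chr13:5861489-5870393, accounted for most of that gap. Its anchor chr13:5860001-5870000 reached 1200 kb upstream and 610 kb downstream, and no other protein-coding gene lay within 250 kb of it. Both stages listed 7 of its loops in common. The loop of 150 kb had 406 contacts in diestrus (367 to 447) and 429 in estrus (389 to 472), and that of 1090 kb had 256 and 239, at strengths of 6.46 and 5.8. The longest, of 1200 kb, had 166 contacts (142 to 193) and 140 (118 to 165) and a ratio of -0.36 (-0.70 to -0.03). The diestrus loops of 200, 420, 520 and 660 kb with 184, 147, 108 and 78 contacts had no estrus counterpart, and their strengths of 2.14 to 2.32 were the lowest of its diestrus loops. An estrus loop of 60 kb with 523 contacts and a strength of 2.23 had no diestrus counterpart.

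Klf10, a TGF-beta-induced factor of the same family, had the loop with the most contacts of this group, of 180 kb with 685 in diestrus (635 to 738) and 618 in estrus (570 to 669), at strengths of 8.73 and 8.5. A further loop of 80 kb had 303 and 300 contacts, and a loop of 340 kb with 61 was listed in diestrus, while its estrus partner, with 52 contacts, lay outside 5 kb of the gene. Dusp1, a phosphatase that switches off MAP kinases, had 454 and 475 contacts in a loop of 130 kb and a diestrus loop of 80 kb with 341. Ier3, an early gene tied to cell survival, had 2 loops in each stage, with 549 and 543 contacts over 50 kb, and with 401 and 437 at nearby bins for a ratio of 0.24 (0.04 to 0.43). Ier2 had 1 loop in each stage with 58 contacts, but not the same loop: 470 kb long in diestrus, and in estrus the loop to Junb.

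Of the Myc genes, Mycn lies on the minus strand at chr12:12936093-12941836 and had 5 loops in diestrus and 6 in estrus. They were among the strongest here, with medians of 6.18 and 4.74. The loop of 270 kb to Ddx1, an RNA helicase gene, had 310 contacts in diestrus (276 to 347) and 329 in estrus (294 to 367). On the other side the loop of 320 kb had 306 (273 to 342) and 239 (210 to 271), at strengths of 8.21 and 6.4 and a ratio of -0.38 (-0.63 to -0.13), while that of 520 kb had 299 and 268, at 7.56 and 7.54. All 5 loops of diestrus were listed in estrus, which had a further loop of 770 kb with 31 contacts. Mycl had 1 loop of 90 kb, the one with the most contacts of the Myc genes, with 514 in diestrus (471 to 560) and 593 in estrus (546 to 643) and a ratio of 0.17 (-0.01 to 0.34).

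The cyclins had 9 loops in diestrus and 8 in estrus, nearly all at the D cyclins, which open the G1 phase in answer to growth signals. Ccnd1 (chr7:144929931-144939831) had the strongest loop of all 41 genes, of 310 kb, at 14.7 in diestrus and 15 in estrus. It had 879 contacts (822 to 939) and 757 (704 to 813) and a ratio of 0.01 (-0.13 to 0.15), so the strengths were indistinguishable within counting error. Its loop of 180 kb had 346 and 320 contacts. Ccnd2 had 3 loops in each stage from 1 anchor. The loop of 300 kb to Parp11 had 253 contacts (223 to 286) and 291 (259 to 326) and a ratio of 0.30 (0.05 to 0.55). The shortest, of 130 kb in diestrus and 120 kb in estrus, had 192 and 156 contacts and a ratio of -0.55 (-0.87 to -0.24), with far anchors in neighbouring bins. Ccnd3 had 2 loops in each stage, and the one of 80 kb, with 600 and 490 contacts, had an anchor near each end of the gene. Ccna2, the S-phase cyclin, had a loop of 630 kb with 48 and 39 contacts and a diestrus loop of 260 kb with 80. Ccne1 and Ccne2, the cyclins of entry into S phase, and Ccnb1, the mitotic cyclin, had none.

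Of the kinases only Cdk6, a partner of the D cyclins, had loops: 4 in diestrus and 3 in estrus, all from the anchor chr5:3340001-3350000 at its start. The loop of 170 kb, within the gene, had 326 contacts in diestrus (292 to 363) and 215 in estrus (187 to 246), at strengths of 5.87 and 4.24 and a ratio of -0.49 (-0.74 to -0.23). Diestrus loops with 116 and 91 contacts and an estrus loop with 35 had no counterpart. Cdk2 and Cdk4 had no loop.

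Of the inhibitors, Cdkn1a, which encodes the p53 target p21, lies on the plus strand at chr17:29090979-29100722 and had 2 loops in each stage. Its loop of 50 kb to Srsf3, a splicing factor gene, had the most contacts of all loops at the 41 genes, with 1047 in diestrus (985 to 1112) and 937 in estrus (878 to 999). The ratio was -0.14 (-0.27 to -0.01). The other loop differed: in diestrus it ran 160 kb upstream to Pxt1 with 101 contacts, and in estrus 70 kb downstream to Cpne5 with 357. Cdkn1b, which encodes p27, at chr6:134920401-134925525, had 2 diestrus loops without a counterpart. They were of 130 kb with 107 contacts (87.7 to 129) and a strength of 1.8, the lowest of the 97, and of 1880 kb with 27 contacts (17.8 to 39.3), the longest. The nearest estrus anchor was 14.5 kb away. Cdkn2a and Cdkn2b, the neighbouring genes of p16, p19ARF and p15, had none, and lay inside 7 diestrus and 5 estrus loops of at least 280 and 380 kb.

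Rb1, the retinoblastoma gene, had 1 loop of 150 kb with 321 contacts in diestrus (287 to 358) and 257 in estrus (227 to 290) and a ratio of -0.36 (-0.60 to -0.12). E2f1 had 1 loop of 50 kb with 227 and 224 contacts. E2f3, an activating E2F on the minus strand at chr13:29906575-29986064, had 5 diestrus and 4 estrus loops. The loop of 100 kb had 336 contacts (301 to 374) and 338 (303 to 376), the most of the Rb and E2F genes. The loop of 130 kb to Cdkal1 had 333 and 287 and a ratio of -0.12 (-0.35 to 0.11). A diestrus loop of 1030 kb to Sox4 with 47 contacts had no counterpart.

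The p53, Mdm2 and growth arrest genes had 19 loops in diestrus and 16 in estrus. Btg1, an antiproliferative gene of quiescent cells, lies on the plus strand at chr10:96617001-96622813 and had 11 and 10, from the bin with the printed promoter and its neighbour. Both stages listed 9 of them. The loop of 280 kb had 171 contacts in diestrus (146 to 199) and 224 in estrus (196 to 255) and a ratio of 0.47 (0.17 to 0.76). The loops of 400 and 700 kb, the strongest at identical bins, had 280 and 270 contacts and 274 and 228 contacts, with ratios of 0.10 and -0.13 on intervals that include 0. Diestrus loops of 240 and 250 kb with 179 and 158 contacts and an estrus loop of 60 kb with 483 had no counterpart.

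Gadd45b, a stress-induced growth arrest gene, had the loop with the most contacts of this group, of 60 kb with 894 in diestrus (836 to 955) and 70 kb with 868 in estrus (811 to 928), at strengths of 7.35 and 6.92. Gadd45a (chr6:67035096-67037407) had 5 diestrus and 4 estrus loops. The upstream loop of 120 kb in diestrus and 110 kb in estrus had 333 (298 to 371) and 378 (341 to 418) contacts, at strengths of 4.88 and 4.79. An estrus loop of 70 kb with 374 contacts and a diestrus loop of 230 kb to Serbp1 with 51 had no counterpart. Mdm2, the ubiquitin ligase that degrades p53, had 1 loop in each stage with 60 and 55 contacts. Trp53 itself and Btg2, a p53 target, had none.

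The 10 genes without a loop were Fosl1, Ccne1, Ccne2, Ccnb1, Cdk2, Cdk4, Cdkn2a, Cdkn2b, Trp53 and Btg2. The nearest anchor in either list was between 7.7 kb (Fosl1) and 124 kb (Cdkn2a) away. Of the 10, 9 belong to the 23 cell cycle and arrest genes, and 44.3% of all protein-coding genes had no loop. Those 23 genes had 43 loops in diestrus and 35 in estrus, with 7 genes higher in diestrus and 0 in estrus, beside 17.5% and 14.3% of all protein-coding genes. The 18 immediate early and Myc genes had 54 and 50, with 6 higher in diestrus and 5 in estrus. A wider limit of 10 kb added the most loops at Mycl, with 1 loop in each stage inside it and 4 within 10 kb, and for Mdm2, with 1 in each stage inside it and 3 in diestrus and 5 in estrus within 10 kb. With an end required inside an anchor, Ccnd2 and Fos lost all their loops, as did Fosb, Egr1 and Gadd45b. Among loops admitted through a single anchor the widest gap was 3.53 kb, at Fosl2 in estrus, and the nearest misses were Egr3 in estrus at 7.39 kb and Fosl1 at 7.7 kb among genes without an estrus loop.

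The genes with many loops stood in gene-poor surroundings. The 8 with the most loops (Btg1, Klf6, Fosl2, Jun, Mycn, E2f3, Gadd45a and Egr2) had a median of 2 other protein-coding genes within 250 kb, with a range of 0 to 4. The median was 9.5 for the 10 genes without a loop, with a range of 2 to 32, and 9 for all protein-coding genes. Spearman's rho between total loops and nearby genes was -0.50 over the 41 genes and -0.13 over all 21631. Genes of 1 region share anchors and background, so this is a description.

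**Figure D5:**
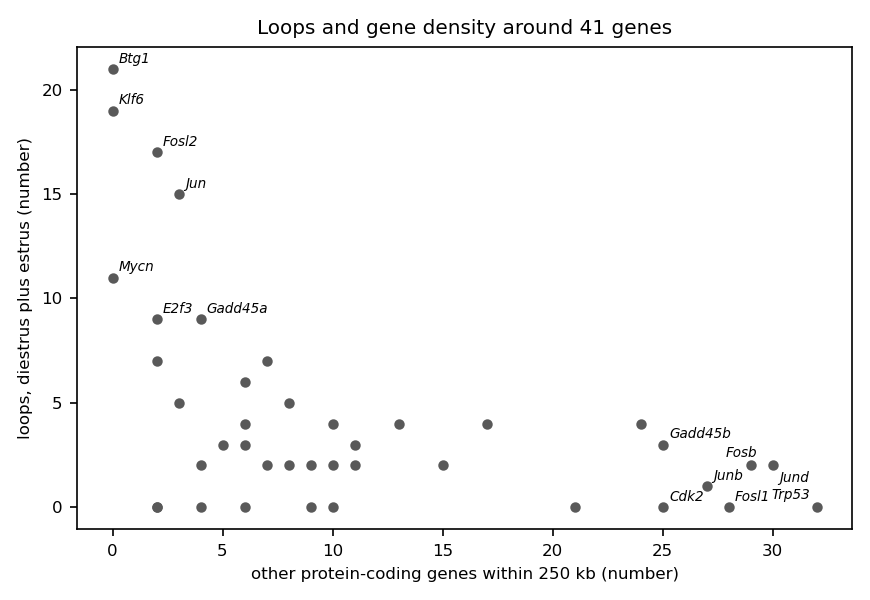
Number of loops over both stages (y axis) against the number of other protein-coding genes within 250 kb (x axis), each point being 1 of the 41 genes. Btg1 and Klf6, with no neighbour in that window, have the most loops, and the genes without a loop have between 2 and 32 neighbours.

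The orientation of the loops was similar in both stages. Where the strand was known, 47 diestrus and 44 estrus loops ran to the upstream side of the gene and 33 and 28 to the downstream side. The annotated start lay inside the anchor for 68 of 81 diestrus and 56 of 73 estrus loops. A named protein-coding gene had an end in the far anchor, or within 5 kb of it, for 28 diestrus (28.9%) and 22 estrus loops (26.2%). Most loops here thus ended away from the ends of such genes. Neither this share nor the sides were counted over all loops, so whether they are particular to these genes is unknown.

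By length, the 19 pairs up to 100 kb were stronger in estrus in 12 cases and in diestrus in 7, with a median ratio of 0.01 beside 0.006 for all 3863 such pairs, of which 51.2% were stronger in estrus. The 16 pairs of 400 to 800 kb were stronger in estrus in 4 and in diestrus in 12, with a median ratio of -0.12 beside 0.004 for all 3484 such pairs, of which 50.7% were stronger in estrus. The 20 pairs of 100 to 200 kb were stronger in estrus in 8 and in diestrus in 12, with a median ratio of -0.03 beside -0.006. Of the 20 pairs of 200 to 400 kb, 10 were stronger in each stage, with a median ratio of 0.01 beside -0.003. Both of the 2 pairs over 800 kb were stronger in diestrus. Jun, Fosl2, Klf6, Mycn and Btg1 hold most of the pairs over 400 kb, so these pairs are not independent loci.

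The wider pathway showed similar counts in both stages. Over 34 other immediate early genes 96 loops were assigned in diestrus and 100 in estrus, and the number was higher in diestrus at 8 genes, higher in estrus at 12, equal at 10 and 0 at 4. The shares over all protein-coding genes were 17.5% higher in diestrus and 14.3% higher in estrus, or 31.5% and 25.6% of those with a loop. Nr4a2, an orphan nuclear receptor of the early response, had 6 and 4 loops. Zfp36, which destabilises early mRNAs, had 0 and 2. Over 49 other cell cycle genes there were 74 and 73 loops, and the number was higher in each stage at 10 genes, equal at 15 and 0 at 14. Cdc25a, the phosphatase that activates the kinases of S-phase entry, had 4 loops and then 6, and the checkpoint kinase gene Chek2 had 2 and 4. Foxm1, a factor for mitotic genes, and Mcm4, a subunit of the replicative helicase, each had 3 and 1, and Ccnb2, a mitotic cyclin named here after its values were seen, had 2 and 0. The median ratio of paired loops was 0.03 over 80 pairs at the first list and 0.04 over 61 pairs at the second.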

How the data were processed

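Per the submitters' processing notes, the authors processed the reads with Juicer on mm10, which shares its chromosome sequences with GRCm38, with versions and settings not given in the sources used here. Each deposited row is 1 loop. Per the file headers these give positions in bins of 10 kb, counts of observed contacts and of collapsed pixels, expected contacts in 4 surroundings (a signal), and q-values, whose largest was 0.0955 in diestrus and 0.0991 in estrus.

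Python 3.11.15, NumPy 2.4.6, pandas 2.3.3 and SciPy 1.17.1 were used. Gene ends came from RefSeq (GRCm38.p6). Strand was known for the 31 genes in the promoter table. A loop was shared when both anchors lay within 10 kb, and paired when mutually nearest. Intervals of contacts are exact Poisson, and those of ratios come from the exact conditional binomial. The scripts were tested on simulated data. There is 1 library per stage, so no test was made. Loops were detailed for genes that differ by at least 2 loops, the 8 with most loops, genes at pairs past 1.5-fold, and the loop with most contacts per role. The members and lists were chosen with earlier results of these data known. The promoters shown, the other single loops, the counts by length and by counting interval, and the gene density were chosen after their values were seen. Alternatives changed the assignment, the sharing rule, the expectation, the q-value, list length, contact minimum and chromosome 7.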

Additional observations from a re-analysis of the deposited data

How the results depend on the processing

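Of 209 values recomputed under other settings, 199 stayed within tolerance, which is 1.5 times for a count and the counting interval of the main value for a difference or share. The other 10 moved, and 0 differences of at least 2 loops reversed. That tolerance is wide for small differences. Of 139 differences between stages, estrus minus diestrus, 24 came to 0 or moved over 1.5 times, and 2 of 1 loop turned sign: AP-1 genes from 1 to -1 with a gene end inside an anchor, and Rb and E2F genes from -1 to 1 with the diestrus list shortened. The difference over the 41 genes was -13, and -6 with that list shortened and -7 within 10 kb. Genes with more loops in estrus, 5 under the main rule, numbered 3 with a gene end inside an anchor, 8 within 10 kb and 3 from the start alone, which covers the 31 genes of known strand. Sharing at the same bins gave 61.9% in diestrus, beside 61.9% of all diestrus loops, and 71.4% in estrus, beside 67.3% of all estrus loops. By that rule the diestrus share did not differ from that of the whole list. Pairs past 1.5-fold in estrus, 1 in the main setting, numbered 0 with the largest of the 4 expectations, 0 with contacts alone and 0 at identical bins. Those past 1.5-fold in diestrus, 1 in the main setting, numbered 3 with contacts alone and 0 at identical bins, since the pairs at Egr3 and Jun lie at nearby bins. The causes of the other moves were not tested. No paired analysis was possible because each stage had 1 library. Single libraries leave the spread between animals unknown, read depth is not given by lists of called loops, and loops with few contacts, such as 27 at Cdkn1b, have wide counting intervals.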

Other observations

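Loops at marker genes of the cell classes of the uterus were counted by the same rule. Genes of luminal and glandular epithelium (Epcam, Krt8, Krt18, Krt19, Cdh1 and Foxa2) had 3 loops in diestrus and 2 in estrus, with no loop at 5 of the 6. Stromal genes (Pdgfra, Vim, Col1a1, Col6a1, Dcn and Hoxa11) had 26 and 28, smooth muscle genes (Acta2, Myh11, Des, Cnn1, Tagln and Actg2) 7 and 10, endothelial genes (Pecam1, Cdh5, Kdr and Tek) 8 and 4, and immune genes (Ptprc, Cd68, Spi1 and Cd3e) 4 and 5. These counts do not measure the share of a cell class, and its part in the values of the 41 genes was not tested.

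Chromosome 7, which carries Fosb, Ccnd1 and Ccne1, had 1448 loops in diestrus and 1177 in estrus, a ratio of 0.813 beside 0.92 over the genome. Loop numbers at these 3 genes were the same in both stages.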
